A study of Mus musculus with 6 samples.

Results

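The genes described include the 5 type III receptor tyrosine kinase genes *Csf1r*, *Flt3*, *Kit*, *Pdgfra* and *Pdgfrb*. With them are the 4 ligand genes *Csf1*, *Il34*, *Flt3l* and *Kitl*. The study describes FF-10101 as selective for type III receptors and names FLT3, CSF1R and c-KIT as targets. Its text does not name the PDGF receptors. The genes were chosen by name, with earlier results of these data known, and all 9 were found among the 54309 gene identifiers of the deposited table. RNA was sequenced from whole subcutaneous tumors of MCA205, a transplantable fibrosarcoma line that arose in C57BL/6 mice after 3-methylcholanthrene, in 2 groups of 3 tumors. All mice received 1000000 MCA205 cells in the right flank on day 0. The Control mice drank milliQ water and the FF-10101 mice drank water with 0.1 mg/mL of FF-10101 from day 1 to day 8, when the tumors were taken. The methods give female mice, used at 7 weeks of age, of the strains C57BL/6J and BALB/c. They give BALB/c as the origin of another tumor line only, EMT6, and the labels do not name the strain that carried these tumors. The line and the mice were otherwise unmodified as far as the labels say, the drug was given by free drinking, and no intake per mouse is given. The model is 1 line at 1 dose and 1 time, and the series' design text calls the tumors of a group biological replicates. The p values therefore set the difference between the groups against the spread between tumors within a group.

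Type III receptors share an extracellular part of immunoglobulin-like domains and a kinase split by an insert. CSF1R keeps macrophages alive and growing and answers to 2 ligands, CSF1 and IL-34. FLT3 is the receptor of dendritic cell precursors and answers to FLT3 ligand, KIT is kept by mast cells, melanocytes and blood stem cells and answers to stem cell factor, the product of *Kitl*, and the PDGF receptors are carried by fibroblasts, pericytes and many sarcoma cells. A kinase inhibitor acts on the protein, so the RNA level of a receptor is no measure of how strongly it was inhibited, and in bulk RNA fewer cells of a type and less RNA per cell cannot be told apart.

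FF-10101 is reported to bind FLT3 covalently, and the study presumes a covalent bond with CSF1R at the cysteine that matches one of FLT3. In the mouse transcripts the codon at this place encodes cysteine in *Csf1r* (codon 665, counted from the first methionine of the longest coding transcript that holds it), *Flt3* (codon 696) and *Kit* (codon 673), phenylalanine in *Pdgfra* (codon 678) and arginine in *Pdgfrb* (codon 689). So 3 of the 5 receptors have the amino acid to which the drug is said to attach. The coding strand of 45 bases around this codon, the codon in capitals, is shown for 3 of them from GENCODE vM21 on GRCm38. That of *Flt3* lies in exon 17 at chr5:147349666-147349710 on the minus strand, that of *Kit* in exon 14 at chr5:75645844-75645888 on the plus strand, and that of *Pdgfra* in exon 15 at chr5:75181530-75181574 on the plus strand.
Flt3: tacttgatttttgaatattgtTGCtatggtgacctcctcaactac
Kit: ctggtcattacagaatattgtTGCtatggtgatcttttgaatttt
Pdgfra: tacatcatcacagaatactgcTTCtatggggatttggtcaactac
*Flt3* and *Kit* have the same TGC codon and share 30 of the 45 bases. *Pdgfra* has TTC there and shares 31 bases with *Flt3* and 29 with *Kit*, so the stretches are about as alike in all 3 pairs and *Pdgfra* stands apart in the codon itself. The bond was not measured by these data.

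Recovered total reads per tumor ran from 9143806 to 13258258, and 18467 to 19440 genes had a read. Values are normalized counts, the reads divided by 1 size factor per tumor, and groups were compared with limma on log2(normalized count + 1) over the 13963 genes that averaged 10 or more, as all 9 members did. 2 tumors stand apart from their groups. Without control tumor 1, limma called 3051 genes at an adjusted p of 0.05 in place of 6, and FF-10101 tumor 1 held 1024 normalized counts of 8 keratinocyte markers where the other 5 tumors held 48.9 to 253. In FF-10101 tumor 1, *Krt14* was at 484 and *Krt5* at 396, while *Krt1*, *Krt10*, *Lor* and *Sbsn* were higher in control tumor 3. Genes abundant in connective tissue tumors were high throughout, with *Vim* at 28120 to 36521 normalized counts, and the epithelial gene *Epcam* was at 15.2 or less. The keratin gene *Krt8*, also of epithelia, was at 454 and 491 in control tumors 2 and 3 and at 3.82 or less in the others. It is described under the other observations. Some results move without control tumor 1, and those values are given with them or with the ranges over left-out tumors in the closing section.

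No member passed an adjusted p of 0.05 in limma (0 of 9, beside 0.043% of all genes), nor in limma-voom (0 of 9). At an unadjusted p of 0.05, 1 of 9 passed by either tool, *Pdgfra*, beside 16.3% of all genes in limma (8.77% higher and 7.49% lower). Every FF-10101 tumor lay above every Control tumor for 4 of the 9, *Pdgfra*, *Csf1*, *Flt3l* and *Kitl*, which is 44.4% beside 10.9% of all genes, and every FF-10101 tumor lay below for 0 of 9, beside 9.37%. The separation of *Flt3l* did not hold once the reads of an overlapping gene were added, as given with its values. The other 5 members overlapped between the groups. The median log2 fold change of the 9 was 0.42, beside 0.02 over all genes tested. This median is the listed value of *Flt3l* itself, which was 0.04 with the reads of the overlapping gene added.

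**Figure D1:**
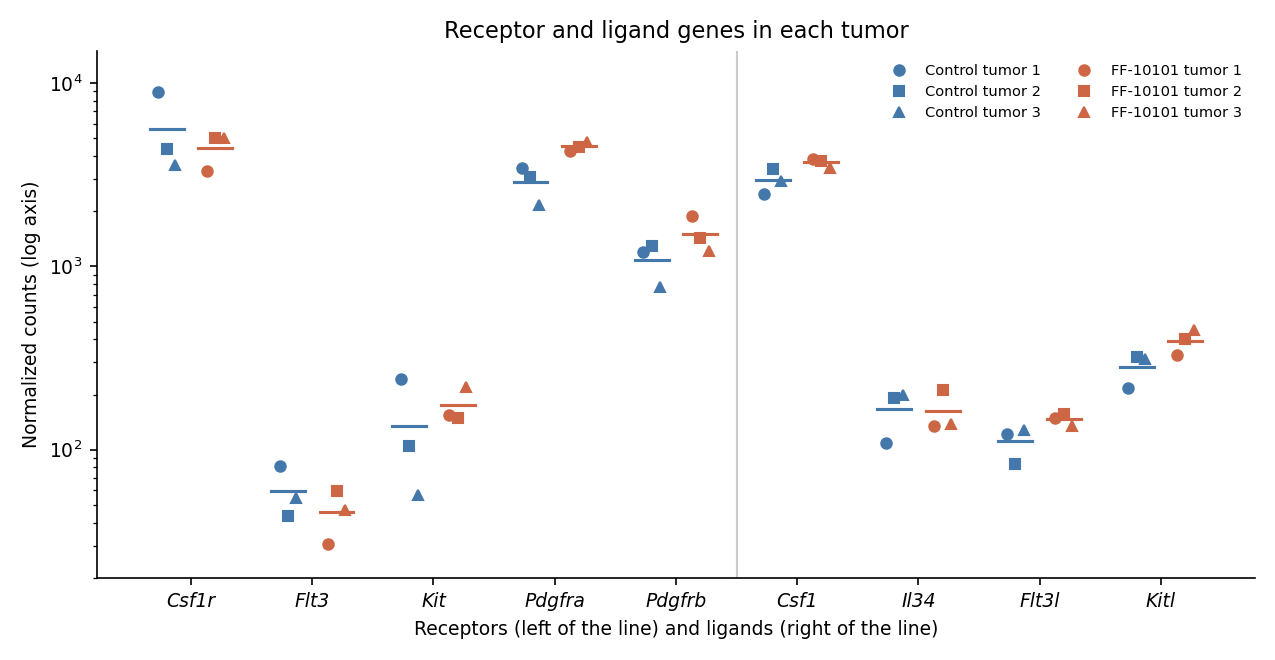
Normalized counts (log axis) of the 5 receptor and 4 ligand genes in each of 3 Control tumors (blue) and 3 FF-10101 tumors (orange), with symbols for the tumor number and bars for group means. The groups are apart for *Pdgfra*, *Csf1*, *Flt3l* and *Kitl*, and control tumor 1 is the highest of all 6 tumors for *Csf1r*, *Flt3* and *Kit*.

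*Csf1r* (ENSMUSG00000024621), the receptor of macrophages, had 8961, 4388 and 3568 normalized counts in control tumors 1, 2 and 3 and 3295, 5006 and 5024 in FF-10101 tumors 1, 2 and 3. Control tumor 1 was highest, the other 5 tumors were close together, and the groups overlap. *Csf1r* had a log2 fold change of −0.25 (standard error 0.35, 95% interval −1.05 to 0.55, adjusted p = 0.735 from limma, exact permutation p = 0.8, two-sided). Control tumor 1 had 2.25 times the mean of control tumors 2 and 3, and 12.3% of all genes tested were more than 2 times that mean in it. Without it the sign turned, to 0.14 (95% interval −0.34 to 0.62, adjusted p = 0.658 from limma). The gene *Hmgxb3* lies on the opposite strand with overlapping exons and averaged 232 normalized counts, and whether strand was used in counting is not given in the sources used here, so reads of the shared part cannot be told apart.

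*Flt3* (ENSMUSG00000042817), the receptor of dendritic cell precursors and the kinase for which FF-10101 was first made, had 81.0, 43.5 and 54.4 normalized counts in the Control tumors and 30.5, 59.7 and 47.1 in the FF-10101 tumors. The highest tumor was control tumor 1, the lowest FF-10101 tumor 1, and the groups overlap. These values rest on 40 to 72 reads a tumor. Its log2 fold change was −0.38 (standard error 0.36, 95% interval −1.22 to 0.47, adjusted p = 0.625 from limma), and −0.14 without control tumor 1. Leaving out other single tumors gave −0.59 to −0.12, the smallest without FF-10101 tumor 1 and the largest without FF-10101 tumor 2. As folds, the interval of *Flt3* runs from 0.429 to 1.38.

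*Kit* (ENSMUSG00000005672), the receptor of mast cells, had 242, 104 and 56.6 normalized counts in the Control tumors and 155, 149 and 220 in the FF-10101 tumors. Control tumor 1 was above all 3 FF-10101 tumors, while control tumors 2 and 3 were below them. It spread most of all members within the Control group, with a coefficient of variation of 71.7% beside 22.7% in the FF-10101 group. *Kit* had a log2 fold change of 0.60 (standard error 0.48, 95% interval −0.51 to 1.71, adjusted p = 0.551 from limma). Without control tumor 1, which had 3.01 times the mean of the other Control tumors, *Kit* rose by 1.15 on the log2 scale (95% interval 0.45 to 1.85, adjusted p = 0.0327 from limma) and the groups were apart.

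*Pdgfra* (ENSMUSG00000029231), a PDGF receptor of fibroblasts and other mesenchymal cells, had 3445, 3087 and 2169 normalized counts in the Control tumors and 4270, 4479 and 4780 in the FF-10101 tumors. All 3 FF-10101 tumors were above all Control tumors, with a coefficient of variation of 5.69% against 22.7%. *Pdgfra* had a log2 fold change of 0.66 (standard error 0.20, 95% interval 0.21 to 1.12, unadjusted p = 0.00983 and adjusted p = 0.229 from limma). The exact permutation p was 0.1, two-sided, the smallest that 3 tumors against 3 can give. Without control tumor 1 it rose by 0.80 on the log2 scale (adjusted p = 0.0154 from limma), and leaving out any other single tumor it stayed positive, down to 0.47. With control tumor 1 left out, *Kit* and *Pdgfra* were the members past the threshold, 2 of 9 or 22.2% and both higher, beside 21.9% of all genes in either direction and 12.0% higher.

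*Pdgfrb* (ENSMUSG00000024620), the other PDGF receptor and a gene of pericytes, had 1203, 1292 and 770 normalized counts in the Control tumors and 1889, 1427 and 1212 in the FF-10101 tumors. The groups overlap by a single pair, FF-10101 tumor 3 lying under control tumor 2. Its log2 fold change was 0.48 (standard error 0.25, 95% interval −0.09 to 1.05, adjusted p = 0.365 from limma, exact permutation p = 0.2, two-sided), 0.25 when control tumor 3 was left out and 0.31 when FF-10101 tumor 1 was.

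Of the ligands, *Csf1* (ENSMUSG00000014599), the macrophage growth factor also called M-CSF, had 2497, 3412 and 2934 normalized counts in the Control tumors and 3874, 3751 and 3457 in the FF-10101 tumors. The groups are apart, narrowly, with control tumor 2 just under FF-10101 tumor 3. The log2 fold change was 0.34 (standard error 0.16, 95% interval −0.04 to 0.71, adjusted p = 0.346 from limma, exact permutation p = 0.1, two-sided), and 0.22 without control tumor 1. As folds, the interval runs from 0.973 to 1.64.

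*Il34* (ENSMUSG00000031750), the second CSF1R ligand, best known from neurons and keratinocytes, had 109, 191 and 199 normalized counts in the Control tumors and 135, 212 and 139 in the FF-10101 tumors. Its groups overlap throughout. The log2 fold change was −0.02 (standard error 0.30, 95% interval −0.71 to 0.67, adjusted p = 0.980 from limma), and −0.30 without control tumor 1, and the sign turned in 4 of the 6 fits that left out a single tumor. FF-10101 tumor 1, the tumor with the high *Krt5* and *Krt14*, had 135, within the range of the others.

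*Flt3l* (ENSMUSG00000110206), the FLT3 ligand, had 122, 83.7 and 128 normalized counts in the Control tumors and 150, 156 and 134 in the FF-10101 tumors. As listed, the groups are apart, by 0.42 on the log2 scale (standard error 0.23, 95% interval −0.11 to 0.96, adjusted p = 0.394 from limma, exact permutation p = 0.1, two-sided), and by 0.23 when control tumor 2 was left out. *Gm45713*, a predicted protein-coding gene on the same strand, shares exons with *Flt3l*. It was listed at 73, 26 and 0 reads in control tumors 1, 2 and 3 and at 0 reads in each FF-10101 tumor. Summed, the pair had 204, 112 and 128 normalized counts in the Control tumors and 150, 156 and 134 in the FF-10101 tumors, and control tumor 1 was then the highest of all 6. The log2 fold change of the sum was 0.04 (95% interval −0.56 to 0.64, adjusted p = 0.955 from limma, exact permutation p = 0.9, two-sided), so the higher *Flt3l* of the FF-10101 tumors depends on which of the 2 genes received the reads. How Salmon divided them was not tested.

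*Kitl* (ENSMUSG00000019966), the KIT ligand known as stem cell factor, had 216, 321 and 313 normalized counts in the Control tumors and 328, 400 and 450 in the FF-10101 tumors. The groups are apart, with FF-10101 tumor 1 close above control tumor 2. The log2 fold change was 0.48 (standard error 0.22, 95% interval −0.02 to 0.98, adjusted p = 0.320 from limma, exact permutation p = 0.1, two-sided), and 0.30 without control tumor 1. *Csf1* and *Kitl* were thus higher in every FF-10101 tumor by the listed values, and neither passed the test over all genes.

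**Figure D2:**
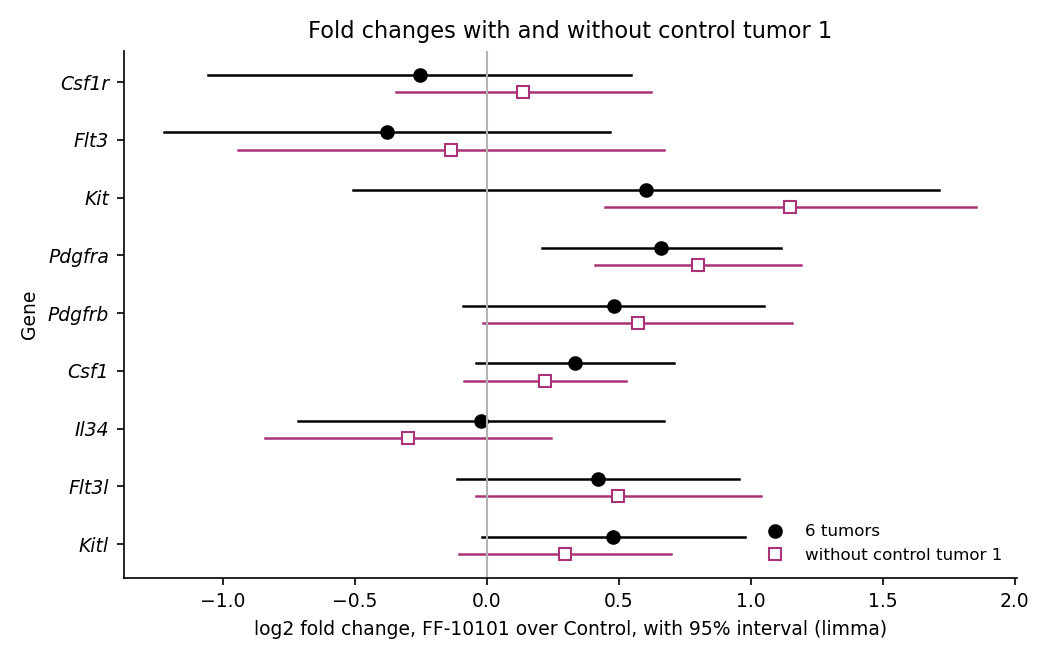
Log2 fold changes of FF-10101 over Control for the 9 genes, with 95% intervals from limma, in all 6 tumors (filled circles) and without control tumor 1 (open squares). The interval of *Pdgfra* lies above 0 in both, that of *Kit* lies above 0 without control tumor 1, and *Csf1r* moves from −0.25 to 0.14.

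The sequence before the start of *Pdgfra*, *Csf1* and *Kitl* is shown because these 3 members were higher together in every FF-10101 tumor, *Flt3l* being left aside for its overlapping gene. RefSeq (GRCm38.p6) gave an upstream sequence for 6 of the 9 members. The 250 bases lie at chr5:75152001-75152250 on the plus strand for *Pdgfra*, at chr3:107760470-107760719 on the minus strand for *Csf1* and at chr10:100015571-100015820 on the plus strand for *Kitl*, and capitals mark matches, on either strand, to 6 motifs.
Pdgfra: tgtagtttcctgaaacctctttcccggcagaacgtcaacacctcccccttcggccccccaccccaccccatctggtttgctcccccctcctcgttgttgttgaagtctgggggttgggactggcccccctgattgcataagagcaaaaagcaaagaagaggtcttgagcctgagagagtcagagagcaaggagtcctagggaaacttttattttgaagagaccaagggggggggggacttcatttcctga
Csf1: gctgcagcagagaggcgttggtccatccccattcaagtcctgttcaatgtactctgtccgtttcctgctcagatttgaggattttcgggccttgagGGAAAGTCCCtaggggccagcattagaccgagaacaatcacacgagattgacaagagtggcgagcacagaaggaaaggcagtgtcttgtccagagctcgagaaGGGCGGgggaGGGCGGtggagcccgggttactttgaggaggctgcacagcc
Kitl: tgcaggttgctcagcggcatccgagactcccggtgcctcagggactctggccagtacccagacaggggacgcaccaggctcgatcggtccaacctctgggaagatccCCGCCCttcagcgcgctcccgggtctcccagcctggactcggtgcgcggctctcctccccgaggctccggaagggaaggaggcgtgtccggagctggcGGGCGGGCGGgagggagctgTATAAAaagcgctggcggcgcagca
The motifs were a TATA box (TATAAA), a GC box (GGGCGG), an NF-kB site (GGG and TTTCC with 2 bases between), an interferon response element (TTTC and TTTC with 2 bases between), a GAS element (TTCNNNGAA) and an E-box (CACGTG). *Csf1* held 1 NF-kB match, found before 1.4% of 27025 genes, and 2 GC boxes, found before 32.9%. *Kitl* held a TATA box (13.0% of genes) and 3 GC boxes, of which 2 overlap, and 69.2% of its bases were G or C beside a median of 52.0% over all genes. *Pdgfra* held none of the 6, and no motif was shared by all 3 genes. A match says only that these letters are there.

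Levels of different genes were compared per kilobase of the longest transcript. In the Control tumors *Csf1r* was highest, at 1200 ± 618 normalized counts per kilobase (SD, n = 3), followed by *Csf1* at 706 ± 110, *Pdgfra* at 424 ± 96.3 and *Pdgfrb* at 201 ± 51.5. *Il34* had 92.6 ± 27.6 per kilobase, *Kitl* 50.1 ± 10.3, *Flt3l* 44.7 ± 9.59, *Kit* 25.6 ± 18.4 and *Flt3* 15.1 ± 4.89 (SD, n = 3 each). The macrophage receptor and its main ligand were thus the most abundant, and the kinase for which the drug was made was the least. Neighbors in this order whose ranges overlap were *Csf1r* and *Csf1*, *Kitl* and *Flt3l*, *Flt3l* and *Kit*, and *Kit* and *Flt3*. The FF-10101 tumors gave the same order, with 945 ± 211 per kilobase for *Csf1r*, 885 ± 51.3 for *Csf1*, 660 ± 37.5 for *Pdgfra* and 11.6 ± 3.70 for *Flt3* (SD, n = 3 each). There *Csf1r* overlapped *Csf1*, *Il34* overlapped *Kitl* and *Kitl* overlapped *Flt3l*. With the median transcript length in place of the longest, *Csf1r* stayed first and *Kit* and *Flt3* last, while *Pdgfra* passed *Csf1* and *Kitl* moved to the fourth place in both groups.

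**Figure D3:**
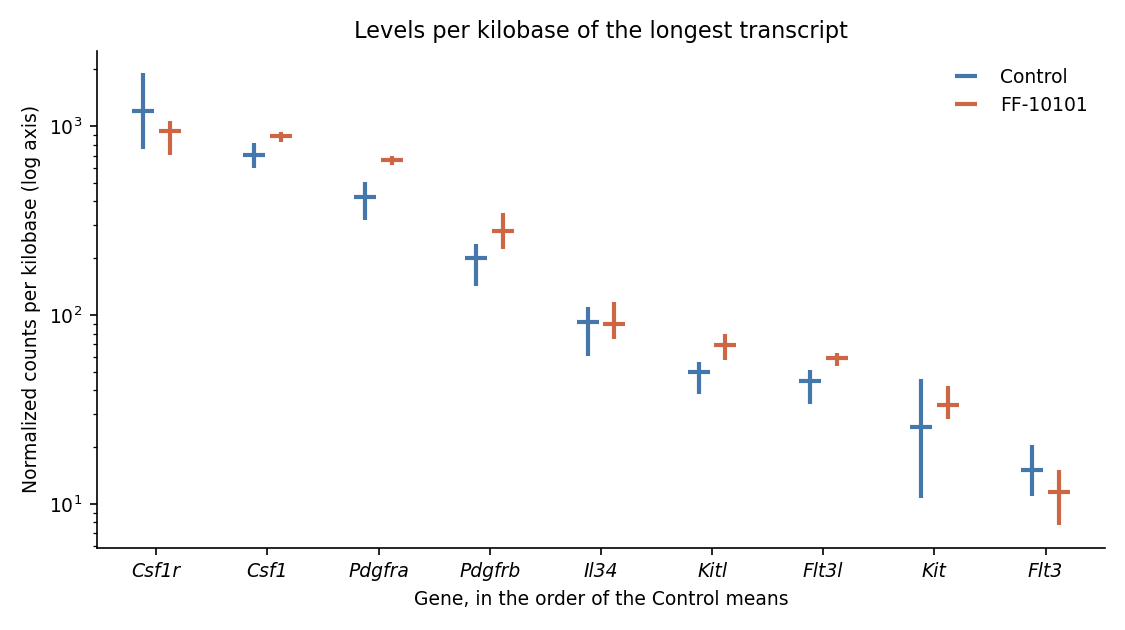
Level of each gene per kilobase of its longest transcript (log axis) in Control (blue) and FF-10101 (orange) tumors, with a short bar at the mean and a line from the lowest to the highest of 3 tumors. *Csf1r*, at 1200 and 945, and *Csf1*, at 706 and 885, lead in both groups, and *Flt3* is last.

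Ligand and receptor were also set against each other within each tumor, a ratio that scaling between tumors cannot move. *Csf1* had 0.279, 0.778 and 0.822 normalized counts for each count of *Csf1r* in the Control tumors and 1.18, 0.749 and 0.688 in the FF-10101 tumors. The extremes were control tumor 1, low, and FF-10101 tumor 1, high, and the groups overlap. The difference of the log2 ratio was 0.59 (exact permutation p = 0.6, two-sided), and 0.08 without control tumor 1. For *Il34* over *Csf1r* the difference was 0.23 (exact permutation p = 1.0, two-sided), and −0.44 without control tumor 1.

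*Flt3l* had 1.5, 1.93 and 2.35 normalized counts for each of *Flt3* in the Control tumors and 4.90, 2.62 and 2.85 in the FF-10101 tumors. This was the single pair of the 4 with groups apart, by 0.80 on the log2 scale (exact permutation p = 0.1, two-sided, the smallest possible), and by 0.52 when FF-10101 tumor 1 was left out. With the reads of *Gm45713* added, the Control ratios were 2.51, 2.58 and 2.35, the FF-10101 ratios stood as they were, and the difference was 0.41 (exact permutation p = 0.1, two-sided). The groups were then apart by the gap between 2.58 and 2.62, a gap smaller than the counting error of 40 to 72 *Flt3* reads a tumor. For *Kitl* over *Kit* the ratios were 0.893, 3.07 and 5.53 in the Control tumors and 2.12, 2.69 and 2.04 in the FF-10101 tumors, a log2 difference of −0.12 (exact permutation p = 0.9, two-sided), −0.85 without control tumor 1 and 0.45 without control tumor 3. Control tumors 1 and 3 were the extremes of that pair, on either side of the FF-10101 tumors. With 4 pairs compared, no p would pass an adjusted 0.05.

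**Figure D4:**
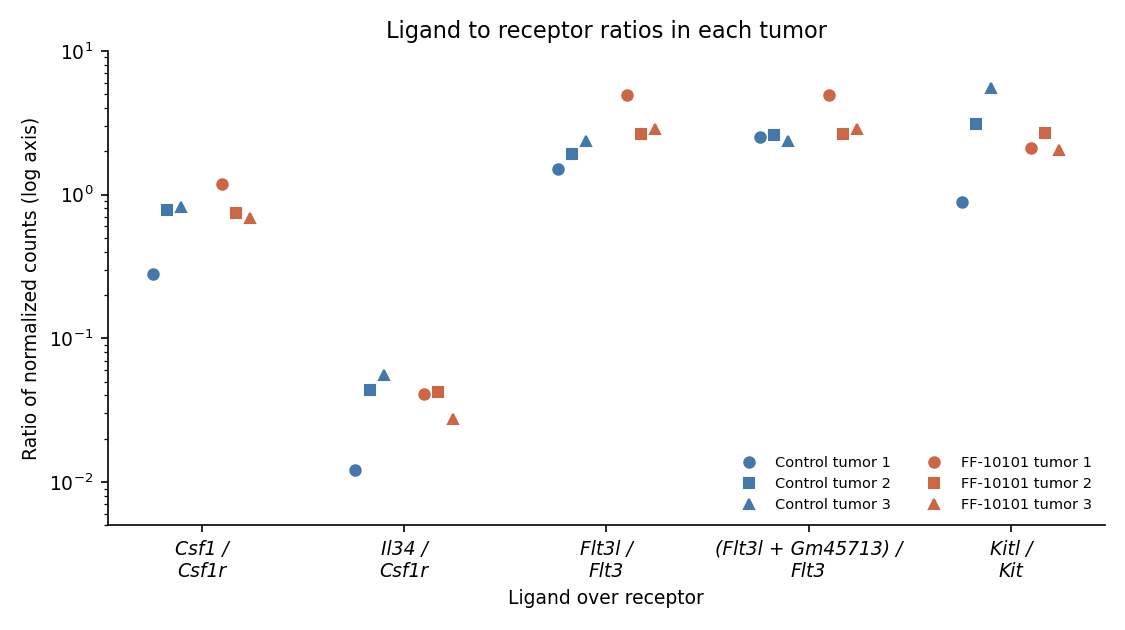
Ligand over receptor ratio of normalized counts (log axis) in each Control (blue) and FF-10101 (orange) tumor, with *Flt3l* over *Flt3* drawn as listed and with the reads of the overlapping gene *Gm45713* added. As listed, its ratios of 2.62 to 4.90 in the FF-10101 tumors lie above all Control ratios, and with the added reads the gap between the groups nearly closes.

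Each receptor was then set beside markers of a cell type known to carry it. Among 12 macrophage markers, 6 were lower in every FF-10101 tumor, beside 9.37% of all genes, and 0 higher, with a median log2 fold change of −0.42, and 6 had an unadjusted p under 0.05, all lower, beside 7.49% of all genes. Without control tumor 1 the median was −0.09, and 2 of the 12 passed an adjusted p of 0.05 lower and 1 higher, beside 9.88% and 12.0% of all genes, the higher one being the protease gene *Ctss* (1.09, adjusted p = 0.0289 from limma). The lysozyme gene *Lyz2* (log2 fold change −1.05), *Adgre1*, which encodes F4/80 (−0.95), the complement gene *C1qc* (−0.84) and *Itgam*, which encodes CD11b (−0.73), were the furthest apart, with adjusted p of 0.229 to 0.236 from limma. The summed list had 75883 to 128090 normalized counts in the Control tumors and 47898 to 79191 in the FF-10101 tumors, and no marker was at 0. *Csf1r* itself was not lower in every tumor. Set against the mean of the list, log2 *Csf1r* was 0.71 ± 0.27 in the Control and 0.81 ± 0.025 in the FF-10101 tumors (SD, n = 3 each), a difference of 0.10 (exact permutation p = 0.7, two-sided), and of 0.40 with the median of the markers in place of the mean (exact permutation p = 0.3, two-sided). The difference from the mean of the list became 0.23 when control tumor 1 was left out and −0.040 when control tumor 3 was. Against single markers, a reading chosen after the data were seen, *Csf1r* was higher in every FF-10101 tumor relative to 3 of the 12, *Adgre1*, *C1qb* and *C1qc*, lower relative to 2, *Cd14* and *Ctss*, and overlapped for the other 7. Relative to all other genes tested it was higher for 0.43% and lower for 18.3%. There were 3.07 to 3.33 *Csf1r* counts for each *Adgre1* count in the FF-10101 tumors beside 1.62 to 2.99 in the Control tumors, and 0.192 to 0.249 for each *Ctss* count beside 0.334 to 0.427.

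*Kit* stood beside mast cell genes that were mostly higher in the FF-10101 tumors. Of 10 mast cell markers 7 were tested, and 6 of these were higher in every FF-10101 tumor, beside 10.9% of all genes, with a median log2 fold change of 1.79. These 6 included *Hdc*, the histamine-forming enzyme (log2 fold change 2.41), and the protease genes *Mcpt4* (1.97), *Cma1* (1.80) and *Cpa3* (1.79), each with an adjusted p of 0.229 from limma. With control tumor 1 left out the median was 1.72 and 5 of the 7 rose past an adjusted p of 0.05 in limma, as 12.0% of all genes did. The summed list had 469 to 608 normalized counts in the Control and 964 to 2004 in the FF-10101 tumors, highest in FF-10101 tumor 3, where *Kit* too was the highest of its group. In control tumor 1, where *Kit* was at 242, the list summed to 608, beside 469 and 541 in control tumors 2 and 3. *Hdc* was at 136 there beside 30.4 and 26.6, and *Cpa3* at 40.5 beside 47.8 and 45.5. Log2 *Kit* relative to the mean of the list differed by −0.80 (exact permutation p = 0.5, two-sided), by −0.18 without control tumor 1 and by −1.44 without control tumor 3. Relative to the median of the markers it differed by −1.28 with groups apart (exact permutation p = 0.1, two-sided, the smallest possible). The 6 melanocyte markers, of other KIT-bearing cells, summed to 4.44 to 29.8 normalized counts and none reached the minimum.

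*Flt3* lay in range of its dendritic cell markers. Of 10 conventional dendritic cell markers 0 were apart in either direction, beside 10.9% of all genes higher and 9.37% lower. Their median log2 fold change was −0.13. Without control tumor 1 the median was 0.15 and 2 of the 10 rose past an adjusted p of 0.05 in limma, as 12.0% of all genes did. Over all 6 tumors *Zbtb46*, a factor of that lineage, had 0.74 and *Clec10a*, a lectin, −0.82 with groups that overlap. The list summed to 1096 to 1755 normalized counts in the Control and 801 to 2234 in the FF-10101 tumors, and log2 *Flt3* relative to its mean differed by −0.42 (exact permutation p = 0.2, two-sided), and by −0.23 when FF-10101 tumor 3 was left out. Relative to single markers, *Flt3* was lower in every FF-10101 tumor for 2 of the 10 and higher for 0, while relative to all other genes tested it was lower for 18.1% and higher for 0.458%. Of 8 plasmacytoid dendritic cell markers, the other FLT3-bearing type, 7 were tested and 0 were apart, beside the same 10.9% and 9.37% of all genes. Without control tumor 1, 1 of the 7 rose past the threshold, beside 12.0%.

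*Pdgfra* was set beside fibroblast markers. Of 8 of these, 3 were higher in every FF-10101 tumor, beside 10.9% of all genes, the matrix proteoglycan genes *Lum* (log2 fold change 1.57) and *Dcn* (1.44) and the matrix gene *Dpt* (1.14), each with an adjusted p of 0.229 from limma. The other 5 overlap, and *Clec3b*, *Col14a1* and *Scara5* were lower in FF-10101 tumor 1 than in any Control tumor. Without control tumor 1 the median of the list went from 1.11 to 1.83 and 3 of the 8 rose past an adjusted p of 0.05 in limma, as 12.0% of all genes did. The list summed to 3222 to 8941 normalized counts in the Control tumors, control tumor 1 the highest, and 8708 to 17994 in the FF-10101 tumors. Log2 *Pdgfra* relative to the mean of the list differed by −0.40 (exact permutation p = 0.8, two-sided). Leaving out control tumor 1 gave −0.75 and control tumor 2 −0.0067, while dropping FF-10101 tumor 1 gave −1.04 and dropping tumor 3 of that group 0.14. Of 9 pericyte markers, 1 was apart, the share of all genes (10.9%). This was the adhesion gene *Mcam* (log2 fold change 0.90, adjusted p = 0.229 from limma). With control tumor 1 left out 4 passed higher and 1 lower, beside 12.0% and 9.88% of all genes. Log2 *Pdgfrb* relative to the list differed by −0.05 (exact permutation p = 0.9, two-sided), and by −0.41 to 0.22 when 1 tumor was left out. The pericyte list summed to 1321 to 2284 normalized counts in the Control and 2540 to 3284 in the FF-10101 tumors. For all 5 receptors the groups overlap relative to the mean of the list, and no marker of these 5 lists was at 0 in every tumor. Which cells gave the *Pdgfra* and *Pdgfrb* reads, tumor cells included, was not tested.

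**Figure D5:**
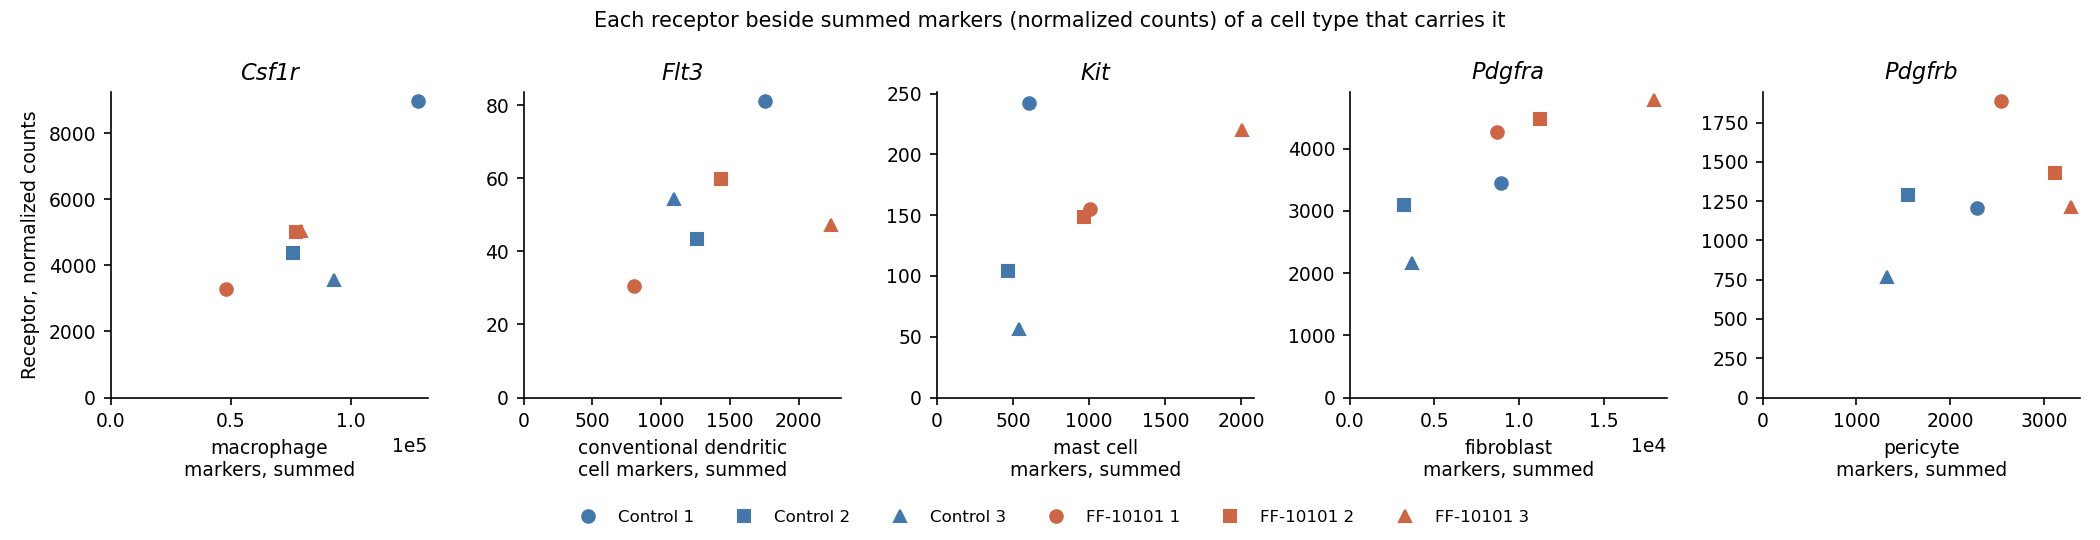
Normalized counts of each receptor (vertical axes) against summed normalized counts of markers of a cell type that carries it (horizontal axes), 1 point per tumor, Control blue and FF-10101 orange. *Csf1r* and the macrophage markers are both highest in control tumor 1, *Kit* at 242 in that tumor comes with fewer mast cell marker counts than in any FF-10101 tumor, and *Pdgfra* is highest in FF-10101 tumor 3, where the fibroblast markers reach 17994.

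Other cell types also moved between the tumors and are given as measured. Of 10 endothelial markers 2 were higher in every FF-10101 tumor, *Tek* (log2 fold change 1.47) and *Erg* (1.33), beside 10.9% of all genes, and 8 of the 10 were higher at an unadjusted p of 0.05, beside 8.77%. When control tumor 1 was left out, all 10 rose past an adjusted p of 0.05 in limma, beside 12.0% of all genes, and the median went from 1.15 to 1.72. The list summed to 2011 to 7047 normalized counts in the Control and 6868 to 7507 in the FF-10101 tumors. Of 9 neutrophil markers 6 were tested and 3 were higher in every FF-10101 tumor, beside 10.9% of all genes. These were the chemokine receptor gene *Cxcr2* (2.30, adjusted p = 0.0813 from limma) and the calprotectin genes *S100a9* (1.94) and *S100a8* (1.61). Of the untested markers, *Ngp* was at 0 reads in every tumor. *Ly6g* and *Camp* were each at 0.764 normalized counts in FF-10101 tumor 1 and at 0 in the others. Without control tumor 1, 5 of the 6 tested rose past the threshold, beside 12.0% of all genes. Among 10 T and NK cell markers, 8 skeletal muscle markers and the tested 5 of 7 adipocyte and 5 of 8 keratinocyte markers, 0 were apart. Of all genes, 10.9% were apart higher and 9.37% lower. In the fit that left out control tumor 1, 5 of the T and NK cell markers rose past an adjusted p of 0.05 in limma, beside 12.0% of all genes, and their median went from 0.60 to 1.10, while 0 of the other 3 lists passed. The part of these cells in the values of the members was not tested.

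Around the receptors, 7 pathway lists and 13 cell type lists held 176 tested genes besides the members, and 0 of them passed an adjusted p of 0.05 in limma or in limma-voom, while 45 (25.6%, beside 16.3% of all genes) had an unadjusted p under 0.05 in limma and 72 (40.9%, beside 21.9%) passed without control tumor 1. Of 33 genes of CSF1R signaling, 3 were higher and 4 lower in every FF-10101 tumor, shares close to the 10.9% and 9.37% of all genes, with a median log2 fold change of 0.12. Leaving out control tumor 1, 14 passed higher and 3 lower, beside 12.0% and 9.88% of all genes, with a median of 0.32. Of the 7 that were apart, the adaptor genes *Dok2* (−0.88, 722 ± 53.1 against 392 ± 22.7 normalized counts, SD, n = 3 each, adjusted p = 0.175 from limma) and *Dok1* (−0.54) and the kinase gene *Akt1* (−0.45) were lower, and *Pik3r1*, the regulatory subunit of PI3 kinase, was higher (0.76). The values of *Dok2* lay at 663 to 767 in the Control and 376 to 418 in the FF-10101 tumors, with control tumor 1 the highest and well apart from the FF-10101 tumors. Of 10 transcription factors that act on *Csf1r*, 1 was apart, *Ets2* (0.63), higher, beside 10.9% of all genes, and 5 of the 10 rose past the threshold without control tumor 1, beside 12.0%.

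Of 28 other receptor tyrosine kinases 26 were tested, and 7 were higher in every FF-10101 tumor, beside 10.9% of all genes, and 0 lower, with a median log2 fold change of 0.26 and 10 at an unadjusted p under 0.05, all higher, beside 8.77% of all genes. They included the endothelial receptors *Tek* (1.47) and *Flt1* (1.27), the FGF receptor gene *Fgfr3* (1.08) and the EGF receptor gene *Egfr* (0.93), with adjusted p of 0.233 to 0.275 from limma. Of the 26, 7 passed higher and 2 lower without control tumor 1, beside 12.0% and 9.88% of all genes. The 4 PDGF ligands were apart in neither direction, beside 10.9% of all genes higher and 9.37% lower. *Pdgfa* was at −0.43 and *Pdgfd* at 1.38, and the median was 0.03. Without control tumor 1 *Pdgfa* passed lower and *Pdgfd* higher (adjusted p = 0.042 and 0.00629 from limma), beside 9.88% and 12.0% of all genes. Of 8 other colony-stimulating factors and receptors 5 were tested and 0 were apart, beside the same 10.9% and 9.37% of all genes. *Csf2rb2* (1.24) and *Csf3r* (1.12), receptor chains of the IL-3 and G-CSF families, had unadjusted p under 0.05 in limma, beside 8.77% of all genes higher at that threshold. Without control tumor 1, 4 of the 5 rose past an adjusted p of 0.05 in limma, beside 12.0%. For IL-34, the alternative partner *Sdc1* had −0.16, and *Ptprz1* was at 0 reads in every tumor, which allows up to 3 reads or 2.29 to 3.38 normalized counts. Of 5 genes of the shedding of CSF1R, *Kitl* and like proteins, 0 were apart, beside 10.9% of all genes higher and 9.37% lower. *Adam17*, the main sheddase, was at 0.22.

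Over the 6 tumors, the protein-coding genes most like each member were listed by Pearson correlation of log2(normalized count + 1) among 11226 genes with a mean of at least 50. All points come from the same 6 libraries, so control tumor 1 weighs on each value. *Csf1r* was most like *Tmem268* (r = 0.996), *Kctd12* and *Cd180*, *Flt3* most like *Orai3* (0.990), *Dglucy* and *Tspan14*, and *Kit* most like *Tox4* (0.998), *Agap1* and *Nsf*. *Pdgfra* was most like *Zc3h13* (0.998) and *Rtl8b*, and *Pdgfrb* most like *Armcx5* (0.983), *Clstn1* and *Pld2*. For the ligands, *Csf1* was most like *Sec24a* (0.984), *Cul4a* and *Phldb1*, *Il34* most like *Ogfod1* (0.982), *Utp14b* and *Cbx2*, *Flt3l* most like *Zfp830* (0.985), *Gm45140* and *Mob3c*, and *Kitl* most like *Akap9* (0.995), *Sgtb* and *Mcc*. No member was among the 3 most like another. *Pdgfra* had 192 genes with r of at least 0.95, *Kit* 189 and *Csf1r* 90, against 10 for *Il34*.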

How the data were processed

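Bulk RNA of 3 Control and 3 FF-10101 tumors was analysed, grouped by the treatment in the labels. The authors trimmed reads with fastp version 0.19.5, quantified them with Salmon version 1.5.1 on GENCODE vM27 and used DESeq2 version 1.22.1. The deposited table holds log2 values of the form of a variance-stabilizing transformation, which the sources used here do not name. Its inverse gave whole reads (tolerance 0.001) for 100% of 325854 values, and reads divided by 1 size factor per tumor are the normalized counts used. The test had been planned for normalized counts and was run on these. Intervals for a count of 0 use a floor of 3 reads and cover counting error only.

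Symbols came from GENCODE vM21 (51484 identifiers matched). R version 4.3.3 and limma version 3.58.1 (lmFit, eBayes with a trend) compared log2(normalized count + 1) between groups for the 13963 genes that averaged 10 or more, adjusted over all of them by Benjamini and Hochberg, and fold changes on this scale understate those of low genes. Single genes and ratios were also compared by exact two-sided permutation tests, for which 0.1 is the smallest p. The steps were tested on simulated data. Members and gene lists were chosen with earlier results of these data known. Named were all members, up to 4 genes of a list with groups apart and the largest fold change (up to 2 where none was apart), and the 3 genes most like each member, of which 1 is not reported here. Lists share genes, such as *Tek* and *Csf3r*. Alternatives were pseudocounts of 0.5 and 10, no minimum and a mean of at least 50, 2 other scalings, the deposited values, limma-voom, no trend, a block for the replicate number, leaving out each tumor, median transcript length, and, for marker lists, the median or markers with a mean of at least 10. Adding *Gm45713* to *Flt3l* and using single markers were chosen after seeing the data.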

Additional observations from a re-analysis of the deposited data

How the results depend on the processing

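The 6 genes past the threshold became 17 with no minimum count, 3 with a mean of at least 50, and 1 to 3051 when a tumor was left out, the highest without control tumor 1. Of 145 alternative values of the member fold changes, 138 kept direction and side of the threshold. Leaving out 1 tumor gave −0.52 to 0.14 for *Csf1r*, −0.30 to 0.13 for *Il34*, 0.11 to 1.15 for *Kit* and 0.47 to 0.80 for *Pdgfra*. Of 83 alternative values of the ratios, 73 kept their direction, and leaving out 1 tumor gave −0.44 to 0.65 for *Il34*/*Csf1r*, −0.85 to 0.45 for *Kitl*/*Kit*, −0.040 to 0.23 for *Csf1r* relative to macrophage markers, −0.41 to 0.22 for *Pdgfrb* relative to pericyte markers and −1.04 to 0.14 for *Pdgfra* relative to fibroblast markers. With the median of the markers, *Kit* relative to mast cell markers was −1.28 and *Csf1r* relative to macrophage markers 0.40, and leaving out 1 tumor gave −1.44 to −0.18 for *Kit*. *Pdgfrb* relative to pericyte markers was 0.0049 with a pseudocount of 10 and 0.096 with the median of the markers. The causes were not tested. *Flt3l* moved from 0.42 to 0.04 with the *Gm45713* reads added. Transcript length moved 14 of 18 levels per kilobase by more than 1 SD.

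The replicate numbers give no pairing in the labels, same-numbered deviations correlated at −0.29, −0.04 and −0.28 across genes, and no tumor correlated best with its own number. With the number as a block, 1 gene passed and no member did. *Flt3* had 40 to 72 reads a tumor, and its standard error of 0.36 was close to the 0.35 of *Csf1r*. With 3 tumors a group, every interval rests on few samples.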

Other observations

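A pair of keratin genes that belong to none of the lists was noticed in these libraries while the tissue label was checked. *Krt8* (ENSMUSG00000049382) had 454 and 491 normalized counts in control tumors 2 and 3, 0 in control tumor 1, and 3.82, 0 and 0.889 in the FF-10101 tumors. *Krt18* (ENSMUSG00000023043), the partner with which keratin 8 forms filaments in simple epithelia and in some transformed cells, had 717 and 643 in control tumors 2 and 3, 55.2 in control tumor 1, and 93.2, 61.9 and 87.1 in the FF-10101 tumors. Control tumor 1 thus lay with the FF-10101 tumors for both genes. *Krt18* had a log2 fold change of −1.88 over all 6 tumors (adjusted p = 0.335 from limma) and of −3.08 without control tumor 1. Other keratins of simple epithelia were near 0, with *Krt7* at no more than 9.78 and *Krt19* at no more than 9.01. By thresholds set after these values were seen, 5 genes had more than 50 normalized counts in control tumors 2 and 3 and more than 5 times the level of every other tumor there: *Krt8*, *Krt18*, *Pnck*, *Uox* and *Gchfr*. Control tumor 1 is also the tumor that was highest for *Csf1r*, *Flt3* and *Kit*, and the relation was not tested.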
